A study of Mus musculus with 12 samples.

Results

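The genes described here encode translation initiation factors (eIF) and elongation factors (eEF), with the proteins that inhibit or modify them, in mouse erythroid cells deprived of zinc, iron or protoporphyrin. Every row was taken whose gene symbol begins with Eif or Eef and a digit, leaving out the 4 kinases of eIF2, the eIF2 alpha subunit (Eif2s1) and names ending in ps. The rule gave 79 of the 55487 rows of each table: 67 factor genes and 12 rows whose names end in a numbered -ps, which are copies of factor genes and are treated apart. Rows were matched by symbol alone, without a measured value, but the members were chosen with earlier results of these data known.

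The RNA was from G1E-ER4, a murine line of red cell progenitors without functional endogenous GATA1, in which an estrogen-receptor fusion of that transcription factor lets estradiol switch on maturation. All 12 cultures, controls included, received 100 nM β-estradiol for 24 h in medium with serum, erythropoietin and Kit ligand, and the 4 groups had 3 libraries each. They were control cells, cells with 50 µM DTPA (a chelator used to lower zinc), cells with 50 µM DFO (an iron chelator) and cells with 0.2 mM SA (used to inhibit ALAD, the heme synthesis enzyme, and lower protoporphyrin IX). For the last group the treatment protocol names 50 µM DFO, while the titles and tags name SA; the titles were followed. All libraries come from 1 cell line, and the control group is shared by all 3 comparisons with control.

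In initiation, eIF2 brings the initiator tRNA to the small ribosomal subunit, eIF3 holds the subunit and recruits mRNA, and the eIF4 proteins bind the cap and unwind the leader. In elongation, eEF1A delivers aminoacyl-tRNA, the eEF1B subunits recharge eEF1A with GTP, and eEF2 moves the ribosome along the mRNA. Maturing red cells devote most of their translation to hemoglobin, and they slow initiation when heme is short. The mRNAs of the elongation factors, of ribosomal proteins and of a few initiation factors begin with a run of pyrimidines, the 5′ terminal oligopyrimidine tract, through which mTORC1 and LARP1 control their translation and stability. The list used here for such mRNAs has 9 members: Eef1a1, Eef1b2, Eef1d, Eef1g, Eef2, Eif3e, Eif3f, Eif3h and Eif4b.

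Promoter sequence from RefSeq (GRCm38.p6, the build of the files) was found for 5 of those 9 genes. A run of a C followed by at least 5 pyrimidines, within 25 bases of the annotated start, was present in 4 of the 5. Windows are shown for those 4, which were called higher with every treatment, and for Eif3l, which is not on the list, for contrast; capitals mark the run, and the strand is that of the gene.
Eef1a1, chr9:78481710-78481739, minus strand: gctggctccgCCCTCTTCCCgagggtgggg
Eef2, chr10:81176635-81176664, plus strand: acgtcagcggtCTCTTCCgccgcagccgcc
Eif3f, chr7:108934404-108934433, plus strand: ttctaggCTCTCTCTCTTTCTCggcaagat
Eif4b, chr15:102073772-102073801, plus strand: acgccgcgccaCCCCCTCgcgctgctttac
Eif3l, chr15:79075217-79075246, plus strand: tcttcttccgCTCTCTCCCacgggcttctg
Eif3l, an eIF3 subunit, was called lower with DTPA but higher with SA. Both calls were lost with median-of-ratios scaling (-0.06 with DTPA, adjusted p = 0.0582 from limma). It was picked by hand, with earlier results of these data known. Such a run was not peculiar to these genes: 19 of the 46 tested factor genes with a promoter (41.3%) and 39.0% of the 7841 tested genes with a promoter held one. The printed runs began at position -5 (Eef1a1), 16 (Eef2), -4 (Eif3f), 11 (Eif4b) and 5 (Eif3l) relative to the annotated start, none of them at its first base. The match describes the letters near an annotated start, which may differ from the start used in these cells.

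A second hexamer, CACGTG (the E-box core, a palindrome and so the same on both strands), was searched over the 300 bases from 250 before the start to 50 after it. It was found in 14 of 46 factor promoters (30.4%), against 984 of 7841 tested genes (12.5%) and 2187 of all 27025 genes (8.09%). Members on either side of the DTPA response carried it, 4 of 15 that were higher (26.7%) and 9 of 29 that were lower (31.0%). The windows below are from Eef2 and Eif3f, which rose with DTPA, and from Eif4g1 and Eef2k, which fell; capitals mark the hexamer.
Eef2, chr10:81176576-81176605, plus strand: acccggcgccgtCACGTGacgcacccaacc
Eif3f, chr7:108934335-108934364, plus strand: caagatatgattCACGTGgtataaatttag
Eif4g1, chr16:20672661-20672690, plus strand: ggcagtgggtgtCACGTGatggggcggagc
Eef2k, chr7:120842788-120842817, plus strand: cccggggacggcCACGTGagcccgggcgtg
The cyclic AMP element TGACGTCA was present in 1 of the 46 promoters (2.17%) and in 4.12% of tested genes. CCGGAAGT, an ETS-type site, was present in 8 (17.4%) and 11.5%, and TGATGNAA, the core of the ATF4 and CEBP composite site, in 2 (4.35%) and 2.51%, counting both strands.

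Values are TPM, reads per gene scaled by gene length and to 1 fixed total per library, as deposited. Between 19857417 and 24326305 reads per library could be recovered from them, and 1 read on a gene of 1 kb was worth 0.124 to 0.160 TPM. A TPM is a share of the library's RNA, and in bulk samples fewer cells of a type and less RNA per cell cannot be told apart. All 9 erythroid markers were at 1 TPM or more in each group, and their sum was 37025 to 40253 TPM in control, 41415 to 43117 with DTPA, 27786 to 29743 with DFO and 22528 to 23125 with SA. Globin genes took 3.70%, 5.34%, 2.49% and 2.05% of the TPM in that order. Of 6 megakaryocyte markers, 4 reached 1 TPM in control and 4 with DTPA, where their summed level was 36.5 to 45.8 TPM against 8.23 to 9.34 in control; Ppbp was at 0 in both groups. The summed mast and myeloid markers stayed at or below 3.54 TPM and the lymphoid ones at or below 2.04 TPM in every library, with the higher values with DTPA. The part of these differences in the results below was not tested.

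Of the 67 factor genes, 59 reached 1 TPM in at least 3 libraries and were tested with 11917 genes in all. The other 8 were not tested: Eif2s3y, Eif4e1b, Eif4e3, Eef1a2 and Eif2c5 (a name of the argonaute family, outside translation) were at 0 in all 12 libraries, and Eef1akmt3, Eif4a3l1 and Eif4a3l2 stayed below 0.3 TPM. The cells thus had one measured copy each of eEF1A (Eef1a1) and of the eIF2 gamma subunit (Eif2s3x). The share of TPM taken by the factor genes together was 2.02% ± 0.0279 in control libraries, and it was 2.38% ± 0.0223 for DTPA, 2.20% ± 0.0272 for DFO and 2.32% ± 0.00430 for SA (SD, 3 libraries each). Elongation factors alone made up 55.4% of the factor TPM in control and eIF3 subunits 18.1%.

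With DTPA, 17 of the 59 factor genes were higher and 35 were lower than in control. That is against a background in which 65.5% of all tested genes were called, 23.5% higher and 42.1% lower. With DFO 10 were higher and none was lower, against 10.7% called (8.39% higher, 2.28% lower); with SA 21 were higher and 3 lower, against 22.2% called (15.4% higher, 6.75% lower). A call is an adjusted p under 0.05 from limma, adjusted over all tested genes; for the DFO falls, 0 members were below an unadjusted p of 0.05, and 2 were called with limma's voom. Counted by libraries, 18 members lay wholly above and 36 wholly below control with DTPA, 26 above and 0 below with DFO, and 29 above and 5 below with SA. Over all tested genes 69.6%, 30.2% and 38.5% did not overlap control (25.5% above and 44.1% below, 23.7% and 6.47%, 26.8% and 11.7%). The median log2 difference of the members was -0.19 with DTPA, 0.06 with DFO and 0.07 with SA, beside -0.11, 0.05 and 0.05 over all genes.

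Because a TPM is a share, these counts depend on the scale. Scaling by the median of ratios shifted DTPA differences up by 0.13 on the log2 scale and DFO and SA differences by -0.05 and -0.06. The members then split into 20 higher and 28 lower with DTPA, 7 and 2 with DFO, and 13 and 8 with SA, and all genes into 3842 higher and 3859 lower with DTPA, 423 and 646 with DFO, and 1124 and 1624 with SA (as deposited, 2796 and 5014, 1000 and 272, and 1838 and 804). Changes smaller than these shifts carry a direction only relative to the scale. On that scale Eif4g1 and Eif5b were called lower with DFO (-0.09 and -0.10), and Eif4a1, Eif4e, Eif4e2, Eif5 and Eif5a were called lower with SA (-0.07 to -0.12), none of them being called in that comparison as deposited.

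**Figure D1:**
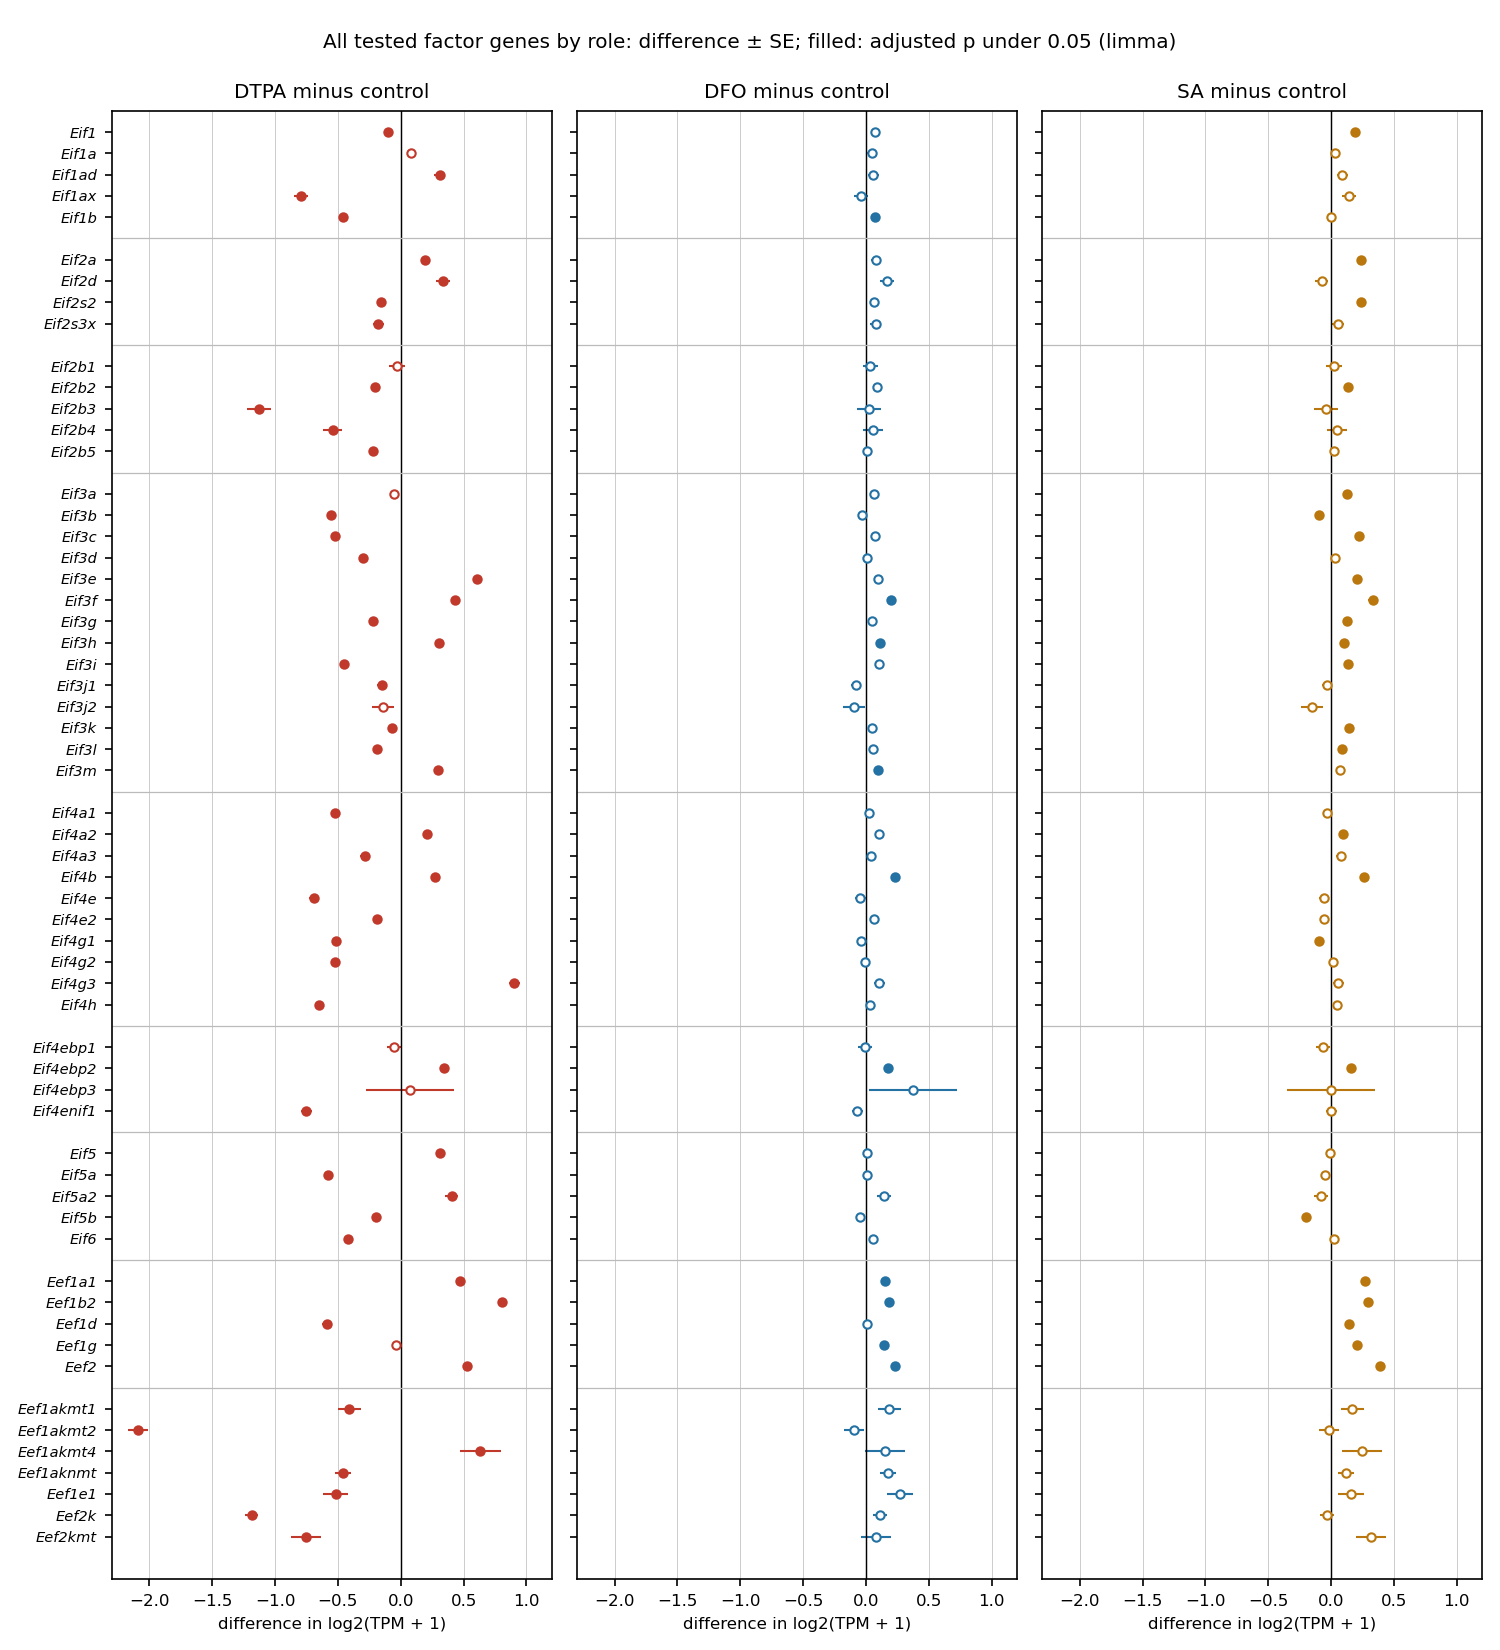
Difference from control in log2(TPM + 1), ± SE, of the 59 tested factor genes, grouped by role from the eIF1 family at the top to the modifiers at the bottom; filled points passed limma's adjusted p of 0.05. With DTPA, 17 points are filled right of zero and 35 left of it, whereas with DFO and SA the filled points are mostly the elongation factors, Eif4b, Eif4ebp2 and eIF3 subunits at small positive values.

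The summed level of the elongation factors was above control with all 3 treatments. Of the 5 tested, 3 were higher, 1 was lower and 1 was not called with DTPA, 4 were higher and 1 was not called with DFO, and all 5 were higher with SA. Over all tested genes 23.5% were higher and 42.1% lower with DTPA, 8.39% and 2.28% with DFO, and 15.4% and 6.75% with SA. The sum was 11186 ± 133 TPM in control, 15641 ± 252 with DTPA (1.40 times control), 12637 ± 221 with DFO (1.13 times) and 13803 ± 14.7 with SA (1.23 times; SD, n = 3 each). Eef1a1 carries most of this sum. It was at 6597, 6474 and 6666 TPM in the control libraries, at 9116, 9229.8 and 8985 with DTPA, at 7223, 7395 and 7251 with DFO, and at 7962, 7850.0 and 7919 with SA. The 4 groups did not overlap, with control lowest, then DFO, SA and DTPA. Against control the log2 difference was 0.47 ± 0.018 with DTPA (SE, adjusted p = 5.82e-10), 0.15 with DFO (adjusted p = 0.000529) and 0.27 with SA (adjusted p = 2.36e-06). Each treatment also differed from the others, DTPA being 0.32 above DFO (adjusted p = 1.71e-08) and 0.20 above SA (adjusted p = 9.55e-07), and DFO -0.12 from SA (adjusted p = 0.0013).

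Eef2, the translocase, followed the same order. Control libraries had 3570.0, 3519 and 3592 TPM, DTPA libraries 5221, 5207 and 4927, DFO libraries 4092, 4296 and 4155, and SA libraries 4598, 4729.5 and 4621. The log2 difference from control was 0.52 with DTPA (adjusted p = 5.65e-09), 0.23 with DFO (adjusted p = 0.000334) and 0.39 with SA (adjusted p = 2.36e-06). No treated library overlapped control, and Eef2 was higher with DTPA than with SA (0.14, adjusted p = 0.000529) and lower with DFO than with SA (-0.15, adjusted p = 0.00254).

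The 3 subunits of the eEF1B exchange factor moved in different directions with DTPA. Eef1b2, a catalytic subunit, rose from 539, 542 and 533 TPM to 931, 924 and 962, a log2 difference of 0.80 ± 0.023 (SE, adjusted p = 6.18e-11) and a 1.75-fold change of the mean. Eef1d, the other catalytic subunit, fell from 67.6, 66.7 and 68.6 TPM to 43.1, 44.8 and 45.9 (-0.59 ± 0.034, adjusted p = 2.25e-08). Eef1g, the structural subunit, was at 442, 439 and 442 TPM in control and 427, 425 and 435 with DTPA; every DTPA library was below control, but the difference of -0.04 did not pass (adjusted p = 0.0915) and was 0.09 after median-of-ratios scaling (adjusted p = 0.00268). With SA all 3 rose: Eef1b2 by 0.30 (adjusted p = 7.27e-06), Eef1g by 0.20 (adjusted p = 1.86e-05) and Eef1d by 0.14 (adjusted p = 0.0108, and 0.1 after median-of-ratios scaling). With DFO, Eef1b2 rose by 0.19 (adjusted p = 0.000723) and Eef1g by 0.14 (adjusted p = 0.00103), while Eef1d, at 66.5 to 71.0 TPM, overlapped control (0.01, adjusted p = 0.89).

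All 5 tested elongation factors were called lower with DFO than with SA (4 with median-of-ratios scaling, where Eef1g had an adjusted p of 0.0886), in a comparison in which 13.5% of genes were called (7.22% higher, 6.3% lower with DFO). The calls for Eef1a1, Eef2 and Eef1b2 (-0.11, adjusted p = 0.0101) were made whichever library was left out. The calls for Eef1d (-0.13, adjusted p = 0.0239) and Eef1g (-0.06, adjusted p = 0.0422) were lost without DFO replicate 1 or 3 or SA replicate 1, for Eef1d also without SA replicate 2 and for Eef1g without SA replicate 3 (adjusted p 0.0665 to 0.0912 and 0.101 to 0.149). The Eef1g call was also lost with the replicate number as a block (adjusted p = 0.071). Both calls were lost with no filter and in a fit of the 6 compared libraries alone.

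**Figure D2:**
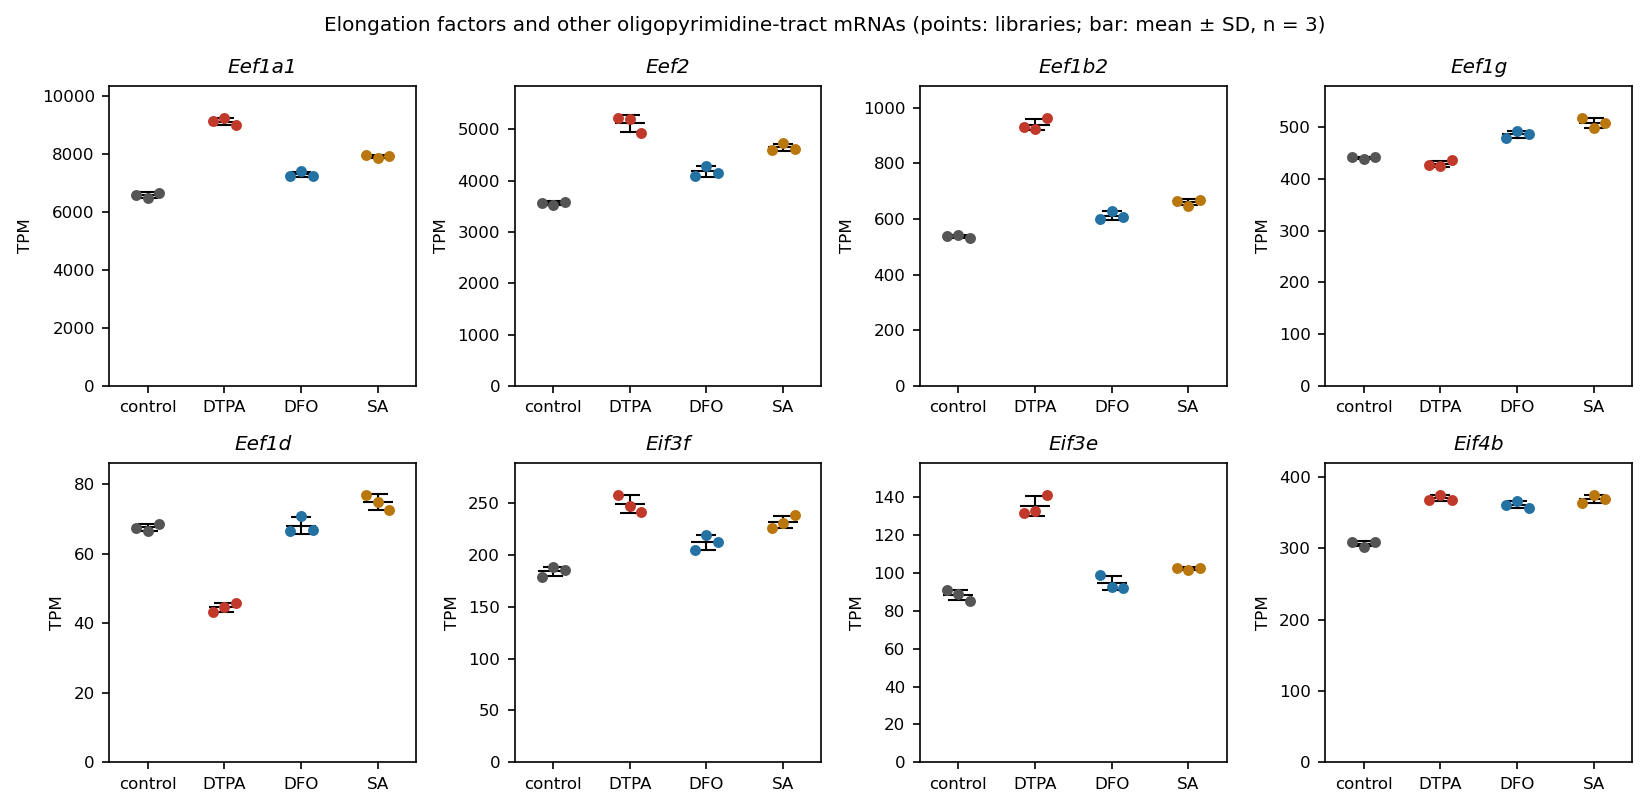
TPM per library (points; bar, mean ± SD, n = 3) of the elongation factors and of other listed oligopyrimidine-tract mRNAs in the 4 groups, each axis from 0. Eef1a1, Eef2, Eef1b2, Eif3f and Eif4b lie above control with every treatment, and Eef1d lies below control with DTPA, at 43.1 to 45.9 TPM against 66.7 to 68.6.

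Of the 9 listed oligopyrimidine-tract mRNAs, 7 were higher with DTPA, 1 (Eef1d) was lower and 1 (Eef1g) was not called, with a median log2 difference of 0.43. With DFO 7 were higher and 2, Eef1d and Eif3e, were not called (median 0.15), and with SA all 9 were higher (median 0.27). The shares higher over all tested genes were 23.5% with DTPA (42.1% lower), 8.39% with DFO and 15.4% with SA. The list was drawn up with earlier results of these data known. With median-of-ratios scaling 8, 6 and 7 of the 9 were higher with DTPA, DFO and SA, beside 3842, 423 and 1124 of all 11917 tested genes. Eif4b, which stimulates the eIF4A helicase, rose with all treatments, from 309, 302 and 309 TPM in control to 368, 375 and 367 with DTPA, 360.3, 367 and 356 with DFO and 363, 374 and 369 with SA. Its log2 differences from control were 0.27 (adjusted p = 1.03e-07), 0.23 (adjusted p = 4.73e-05) and 0.27 (adjusted p = 2.96e-06). Between treatments none was called, the difference of DTPA and SA being 0.0056 ± 0.0185 (SE, adjusted p = 0.808). That depended on the scale: with median-of-ratios scaling Eif4b was higher with DTPA than with SA (0.20, adjusted p = 2.04e-06) and than with DFO (0.22, adjusted p = 6.78e-07), and voom also called both (0.10 and 0.13). Ribosomal protein genes, the main class with such tracts, made up 7.82% ± 0.0996 of the control TPM, and 11.1% ± 0.227 for DTPA, 8.65% ± 0.0391 for DFO and 9.18% ± 0.0956 for SA (SD, 3 libraries each). That is the order of the elongation factors; its part in their change was not tested.

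The eIF3 complex, with 14 tested genes, was at 0.994 times its control sum with DTPA, and at 1.09 times after median-of-ratios scaling. Of its subunits 4 rose, 8 fell and 2 were not called (5 and 5 called on the latter scale), beside 23.5% of all genes higher and 42.1% lower. The summed level was 1.05 times control with DFO and 1.08 times with SA. Eif3e rose from 90.6, 88.7 and 85.2 TPM to 131, 132 and 141 with DTPA (0.61 ± 0.035, SE, adjusted p = 2.5e-08). Eif3f, which forms a module of the complex with Eif3h and Eif3m, rose from 179, 188 and 185 TPM to 258, 247 and 241 (0.43, adjusted p = 2.99e-07). Eif3h and Eif3m rose by 0.31 and 0.30, Eif3h from 919.7 to 924 TPM up to 1117 to 1170.2. In these 4 genes no DTPA library overlapped a control library, beside 25.5% of all tested genes that lay wholly above control.

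Most other subunits were lower. Eif3b, of the conserved core, fell from 307, 287 and 301 TPM to 207, 204 and 199 with DTPA (-0.55, adjusted p = 4.17e-09), and Eif3c, also of the core, from 395, 373 and 399 to 267, 273 and 269 (-0.53, adjusted p = 3.81e-09). Eif3i (-0.46), Eif3d (-0.30, the subunit that can bind caps), Eif3g (-0.22) and Eif3l (-0.19) were also lower. Smaller falls were called for Eif3j1 (-0.15, adjusted p = 0.00706) and Eif3k (-0.07, adjusted p = 0.0133). The Eif3j1 call was lost with median-of-ratios scaling (-0.02, adjusted p = 0.676), with trimmed-mean scaling, when rescaled without globin, ribosomal protein and mitochondrial genes, with voom (adjusted p = 0.0835) and with no filter. Eif3k lost its call without control replicate 3 or DTPA replicate 2 (adjusted p = 0.0553 and 0.0529) and was at 0.06 after median-of-ratios scaling. Eif3a, the largest subunit, and Eif3j2 overlapped control; without control replicate 2 both passed as lower (adjusted p = 0.0136 and 0.021), whereas with median-of-ratios scaling Eif3a was at 0.08 (adjusted p = 0.013).

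With SA, 9 of the 14 subunits rose and 1 fell, and with median-of-ratios scaling 4 rose and 1 fell. Over all 11917 tested genes 15.4% were higher and 6.75% lower with SA, and with median-of-ratios scaling 1124 were higher and 1624 lower. Eif3c rose to 462, 447 and 452 TPM (0.22, adjusted p = 8.86e-05), so that it was above control with SA and below it with DTPA. In the same way Eif3g, Eif3i, Eif3k and Eif3l were called lower with DTPA and higher with SA, as were Eif1, Eif2s2, Eif2b2 and Eef1d, 9 genes in all. Over all tested genes 42.1% were lower with DTPA, but the share with both calls was not computed. Among these 9, the SA calls of Eif2b2, Eif3g, Eif3i, Eif3l and Eef1d were lost with median-of-ratios scaling, as were those of Eif3a, Eif3h and Eif4a2; the DTPA calls of Eif1, Eif2s2, Eif2b2, Eif3k and Eif3l were lost as well. Eif3c kept both calls on that scale, at -0.39 with DTPA and 0.16 with SA. The SA call of Eif3l was also lost without control replicate 2, SA replicate 1 or SA replicate 2 (adjusted p 0.0521 to 0.057), and that of Eif3a without SA replicate 3 (adjusted p = 0.0516).

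Eif3b was the 1 eIF3 subunit lower with SA, at 282, 278 and 275 TPM against 287 to 307 in control (-0.10, adjusted p = 0.0203). This call was lost without control replicate 1 or 3 or SA replicate 2 or 3 (adjusted p 0.0564 to 0.0733). With DFO 3 of the 14 subunits rose, beside 8.39% of all tested genes: Eif3f to 204, 218 and 213 TPM (0.20, adjusted p = 0.0033), Eif3h (0.11, adjusted p = 0.00738) and Eif3m (0.10, adjusted p = 0.0237). The last was lost without control replicate 2 or 3 or DFO replicate 2 or 3 (adjusted p 0.0768 to 0.0855), and both Eif3h and Eif3m were lost with median-of-ratios scaling.

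The cap-binding complex fell with DTPA, to 0.797 times its summed control level of 2064 ± 44.6 TPM (1645 ± 16.9, SD, n = 3). Of its 10 tested genes, 7 were lower and 3 were higher, beside 65.5% of all genes called and 42.1% lower. Eif4e, which binds the cap, went from 70.8, 68.6 and 71.2 TPM to 40.5, 43.5 and 45.4 (-0.69 ± 0.041, SE, adjusted p = 2.61e-08). Eif4g1, the scaffold that joins eIF4E, eIF4A and eIF3, went from 446, 427 and 450.0 to 306, 313 and 306 (-0.51, adjusted p = 1.35e-09). Eif4a1, the main helicase, went from 298, 282 and 294 to 200.2, 206 and 202 (-0.52, adjusted p = 1.79e-09), and Eif4h, its cofactor, from 358, 351 and 359.7 to 226, 229.7 and 224 (-0.65, adjusted p = 4.18e-11). Eif4g2, which lacks the eIF4E-binding part (-0.53), Eif4a3, of the exon junction complex (-0.29), and Eif4e2, a cap-binding homologue (-0.19), were lower too.

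The 3 that rose were the alternate scaffold, the second helicase and the helicase cofactor Eif4b. Eif4g3 was at 17.6, 16.6 and 16.6 TPM in control and 31.8, 33.6 and 32.3 with DTPA, the largest rise of any tested member (0.90 ± 0.044, SE, adjusted p = 5.27e-09; 1.92 times control). Eif4a2 was at 71.0, 72.9 and 72.4 TPM and rose to 81.0, 83.5 and 86.1 (0.21, adjusted p = 7.95e-05). No DTPA library overlapped control for any of the 10 genes, beside 69.6% of all tested genes without overlap (25.5% above and 44.1% below). With DFO and SA the complex stood at 1.03 and 1.02 times control. Besides Eif4b, Eif4a2 was called higher with SA (0.10, adjusted p = 0.0413), and Eif4g1 was lower, at 412, 411 and 413 TPM (-0.10, adjusted p = 0.0076). With median-of-ratios scaling 1 gene of the complex was higher and 4 were lower with SA. The Eif4a2 call with SA did not survive leaving out any 1 of the 6 libraries (adjusted p 0.055 to 0.125).

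**Figure D3:**
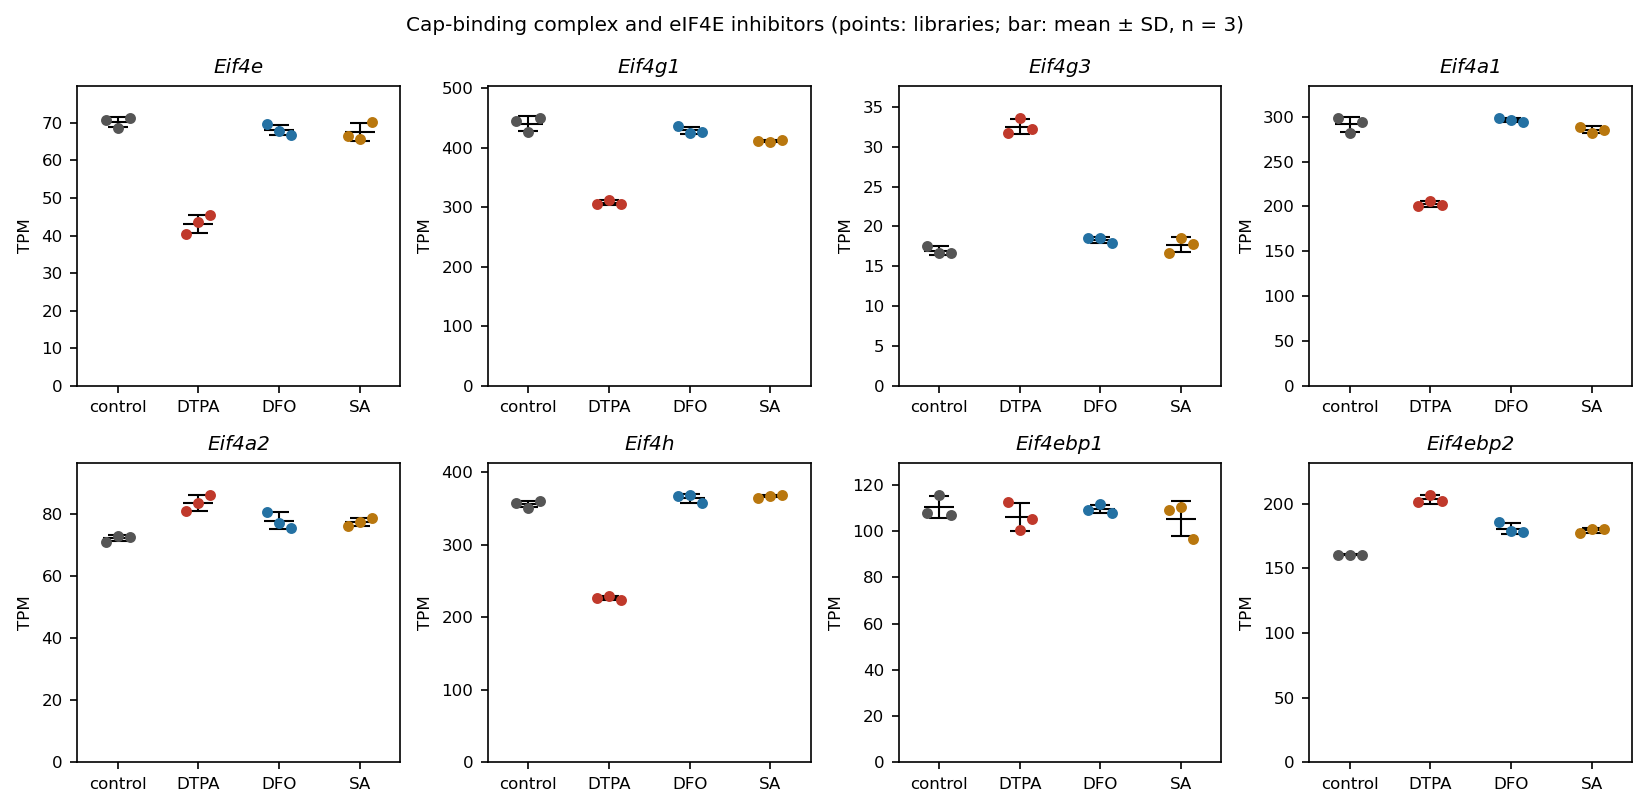
TPM per library (points; bar, mean ± SD, n = 3) of cap-binding complex genes and of 2 inhibitors of eIF4E, each axis from 0. With DTPA, Eif4e, Eif4g1, Eif4a1 and Eif4h lie below all other libraries and Eif4g3 lies above them, at 31.8 to 33.6 TPM against 16.6 to 18.6 elsewhere, while Eif4ebp1 overlaps between groups.

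Of the 4 tested genes that bind or inhibit eIF4E, 1 was higher, 1 was lower and 2 were not called with DTPA. Over all tested genes 65.5% were called, 23.5% higher and 42.1% lower. Eif4ebp1, the best known of the eIF4E-binding proteins released by mTORC1 phosphorylation, was at 108, 116 and 107 TPM in control and 113, 100.4 and 105 with DTPA, an overlap (-0.06, adjusted p = 0.388; 0.08 after median-of-ratios scaling, adjusted p = 0.313). Eif4ebp2 rose with every treatment, from 160.0 to 161 TPM in control to 201 to 207 with DTPA (0.34, adjusted p = 3.49e-08), 178 to 186 with DFO (0.17, adjusted p = 0.000527) and 177 to 181 with SA (0.16, adjusted p = 0.000234). Eif4ebp3 was near the limit of testing, at 0.411 to 2.77 TPM over all libraries. Eif4enif1, which carries eIF4E into the nucleus and into mRNA granules, fell with DTPA from 48.9, 44.3 and 48.8 TPM to 26.7, 29.0 and 27.5 (-0.75, adjusted p = 3.33e-08).

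Ratios of paired genes within a library do not depend on the scale of the library. For 7 pairs and 3 treatments, 13 of 21 ratios had treated libraries outside the control range. Of single tested genes, 69.6% with DTPA, 30.2% with DFO and 38.5% with SA did not overlap control, and no share over other gene pairs was computed. The smallest p an exact 2-sided permutation test of 3 against 3 can give is 0.1, and 0.162 after adjustment over the 21, so none can pass. Eif5a2 relative to Eif5a, 2 forms of the hypusine-bearing factor that helps stalled ribosomes, went from 0.0895 ± 0.00156 in control to 0.179 ± 0.00790 with DTPA (SD, n = 3), since Eif5a fell and Eif5a2 rose. Eif4a1 relative to Eif4a2 went from 4.04 ± 0.167 to 2.43 ± 0.0752, and Eif4ebp1 relative to Eif4e from 1.57 ± 0.0999 to 2.47 ± 0.269. Eif4e2 relative to Eif4e went from 0.755 ± 0.0126 to 1.08 ± 0.0494, and Eif1b relative to Eif1 from 0.828 ± 0.0291 to 0.644 ± 0.0186. The ratio of Eif4g2 to Eif4g1 overlapped control with DTPA (0.756 ± 0.0145 against 0.763 ± 0.0166). Eif4ebp2 relative to Eif4ebp1 was above control with all 3 treatments, at 1.92, 1.65 and 1.71 against 1.46. Pairs with Eef1a2, Eif2s3y and Eif4e3 were left out because these genes are listed at 0.

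**Figure D4:**
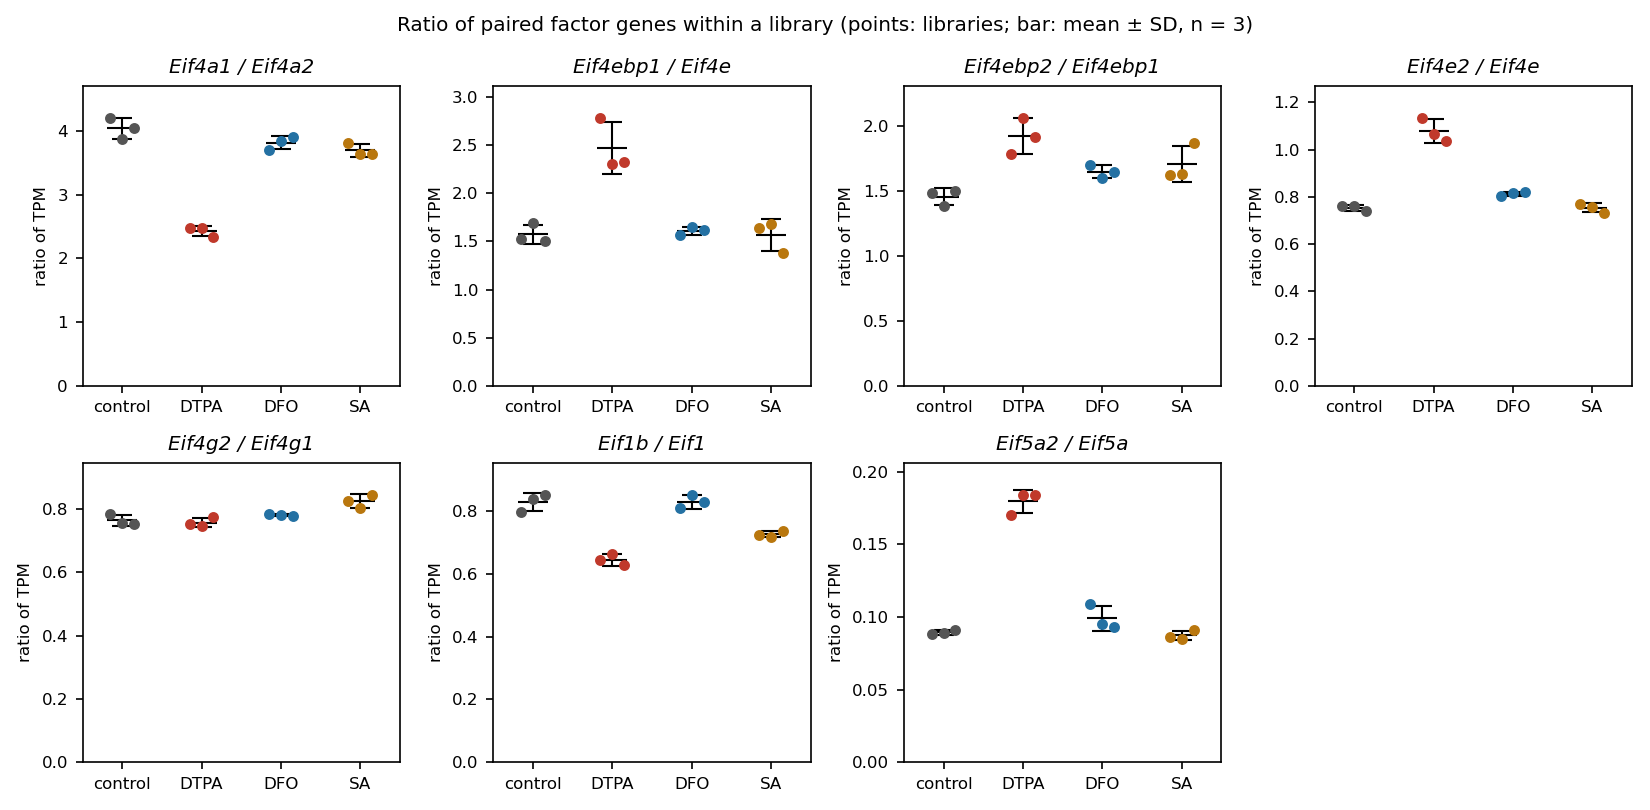
Ratio of the TPM of 2 factor genes within each library (points; bar, mean ± SD, n = 3), each axis from 0. With DTPA the ratio of Eif5a2 to Eif5a is 0.179 against 0.0895 in control and that of Eif4a1 to Eif4a2 is 2.43 against 4.04, whereas the ratio of Eif4g2 to Eif4g1 overlaps control with DTPA.

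Among the other initiation factors, eIF2B, which reloads eIF2 with GTP, was lower with DTPA: 4 of its 5 subunits fell, beside 42.1% of all genes, and its summed level was 0.839 times control. With median-of-ratios scaling 3 of the 5 were lower and the sum was 0.920 times control. Eif2b3 fell most, from 8.56, 8.02 and 7.39 TPM to 3.12, 2.79 and 3.47 (-1.12 ± 0.095, SE, adjusted p = 7.22e-07; 0.391 times control). Eif2b4 fell from 58.4, 52.7 and 53.8 TPM to 32.3, 40.1 and 40.5 (-0.54, adjusted p = 7.11e-05), and Eif2b5, the catalytic subunit, from 91.3 to 94.3 TPM down to 77.4 to 81.4 (-0.22, adjusted p = 6.86e-06). Eif2b2 was lower by a smaller step (-0.21), and Eif2b1 overlapped control in all treatments. With DFO limma called 0 of the 5 (1 at an unadjusted p under 0.05, 0 with voom), and with SA 1, Eif2b2 (0.14, adjusted p = 0.00643). The shares called over all tested genes were 10.7% with DFO and 22.2% with SA.

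Of the eIF2 subunits tested, Eif2s2 was at 84.3 to 89.6 TPM in control, 76.4 to 78.4 with DTPA and 99.8 to 104 with SA, a difference of -0.16 with DTPA (adjusted p = 0.000366) and 0.24 with SA (adjusted p = 0.00015). Eif2s3x was lower with DTPA (-0.18, adjusted p = 0.00569). Both DTPA calls were lost with median-of-ratios scaling. Eif2a and Eif2d, which bring tRNA to the ribosome without eIF2 and share its name only, both rose with DTPA, Eif2a from 36.7 to 41.3 TPM up to 44.8 to 45.5 (0.20, adjusted p = 0.000661) and Eif2d from 16.0 to 17.4 up to 19.7 to 22.7 (0.34, adjusted p = 0.000156). Eif2a was also higher with SA (0.24, adjusted p = 0.000937).

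Of the start-codon scanning factors, Eif1ax, an eIF1A gene, fell with DTPA from 31.6, 32.8 and 32.9 TPM to 19.2, 16.5 and 19.3 (-0.79 ± 0.055, SE, adjusted p = 1.22e-07). The other eIF1A gene, Eif1a, was at 44.0 to 46.7 TPM in control and 48.0 to 48.8 with DTPA, above control in each library without passing the test (0.08, adjusted p = 0.0524); it passed without control replicate 1 (adjusted p = 0.0415) and with median-of-ratios scaling (0.21, adjusted p = 3.4e-05). Eif1b fell from 459, 465 and 464 TPM to 333, 341 and 333 (-0.46, adjusted p = 2.51e-09). It was called higher with DFO (0.08, adjusted p = 0.0424), but not when any 1 of the 6 libraries was left out (adjusted p 0.0574 to 0.136). Eif1 was lower with DTPA (-0.10) but at 0.03 after median-of-ratios scaling, and it was higher with SA, at 632, 637 and 647 TPM against 546 to 578 (0.19, adjusted p = 0.000124).

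At subunit joining and after, Eif5, which triggers GTP hydrolysis by eIF2, rose with DTPA from 225 to 236 TPM up to 279.7 to 293 (0.31, adjusted p = 2.94e-07). Eif5a fell from 297, 284 and 288 TPM to 189, 198 and 193 (-0.58, adjusted p = 2.02e-09), and Eif6, which keeps the large subunit from joining too early, from 92.3 to 92.7 TPM down to 68.1 to 70.5 (-0.42, adjusted p = 3.37e-08). Eif5b, the GTPase of subunit joining, was the member lowest relative to control with SA among called genes: 522, 499.7 and 527 TPM in control, 463, 436 and 447 with SA (-0.20, adjusted p = 0.000205) and 446, 454 and 454 with DTPA (-0.19, adjusted p = 3.25e-05). With DFO it was at 494 to 505 TPM, overlapping control, and above SA (0.16, adjusted p = 0.00219).

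The genes that modify elongation factors included the largest falls with DTPA. Their summed level was 108 ± 6.40 TPM in control and 55.9 ± 3.79 with DTPA (SD, n = 3), 0.515 times control, with 6 of 7 tested genes lower, beside 42.1% of all genes. Eef1akmt2, a lysine methyltransferase of eEF1A, went from 45.4, 36.2 and 34.9 TPM to 7.96, 8.27 and 8.68 (-2.09 ± 0.082, SE, adjusted p = 7.45e-10), 0.214 times control; control replicate 1 was above the other controls. Eef2k, the kinase that inhibits eEF2, went from 13.3, 12.6 and 12.5 TPM to 4.93, 5.39 and 4.91 (-1.19 ± 0.054, adjusted p = 2.66e-09), so that Eef2 was higher and its inhibiting kinase lower in the same libraries. Eef2kmt, a methyltransferase of eEF2, went from 6.02, 5.84 and 4.65 TPM to 2.94, 2.40 and 3.21 (-0.76, adjusted p = 0.000167). Eef1akmt1 (-0.41), Eef1aknmt (-0.46) and Eef1e1, a scaffold of the tRNA synthetase complex (-0.52), were lower as well. Eef1akmt4 rose (0.63, adjusted p = 0.00433) at a low level, 1.62 to 3.01 TPM in control and 3.39 to 4.36 with DTPA. With DFO and with SA limma called 0 of the 7, beside 10.7% and 22.2% of all tested genes. At an unadjusted p under 0.05 there were 2 and 1, and with voom 0 in both. The range of adjusted p was 0.113 to 0.73 for DFO and 0.0861 to 0.919 for SA. With SA 2 passed when 1 library was left out, Eef1akmt4 without control replicate 2 (adjusted p = 0.0441) and Eef2kmt without SA replicate 1 (adjusted p = 0.044).

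**Figure D5:**
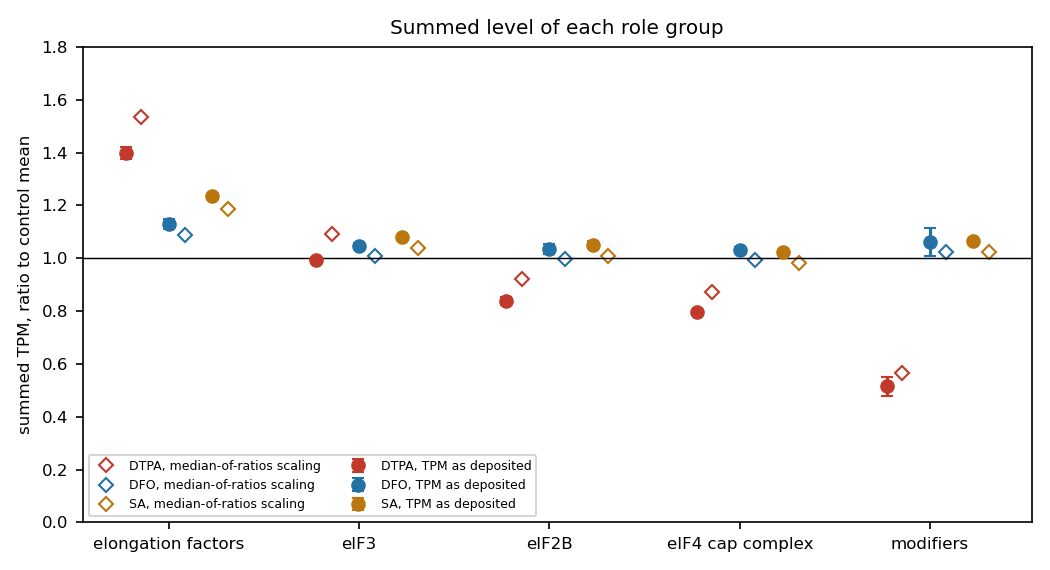
Summed TPM of 5 role groups as a ratio to the control mean, for TPM as deposited (filled; bar, SD of the 3 treated libraries) and after median-of-ratios scaling (open). Elongation factors lie above 1 and the cap complex, eIF2B and modifiers lie below 1 with DTPA on both scales, whereas for DFO and SA the groups other than elongation factors lie close to 1 and in part change side.

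In direct comparison of treatments, 16 members were higher and 36 lower with DTPA than with DFO (65.9% of all genes called, 19.6% higher and 46.4% lower), and 14 and 36 than with SA (67.1%, 20.1% higher and 47% lower). Median-of-ratios scaling gave 20 and 28, and 22 and 29. Eif4g3 exceeded both other treatments, by 0.79 against DFO (adjusted p = 1.72e-08) and 0.84 against SA (adjusted p = 9.71e-09). Eif4e was lower than in both, by -0.65 (adjusted p = 4.94e-08) and -0.63 (adjusted p = 5.73e-08), and Eef2k by -1.30 (adjusted p = 1.32e-09) and -1.15 (adjusted p = 3.41e-09). These comparisons share the DTPA libraries. Between DFO and SA, 5 members were higher with DFO and 11 were lower, beside 7.22% and 6.3% of all tested genes. The 11 included the 5 elongation factors, with the limits given for Eef1g and Eef1d. Leaving out 1 library gave 2 to 5 higher and 7 to 11 lower. The calls of Eif1b, Eif2a, Eif2d, Eif3f, Eif3k and Eif5a2 were each lost without at least 1 of the libraries. That of Eif3f was also lost with median-of-ratios scaling.

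Partner genes outside the symbol rule were taken from lists made for the same steps. Of 8 genes that bind the poly(A) tail or oligopyrimidine mRNAs, 3 rose and 4 fell with DTPA, where 23.5% of all genes were higher and 42.1% lower. Pabpc1, the main poly(A)-binding protein and itself encoded by an oligopyrimidine mRNA, rose from 772 ± 16.3 TPM to 1162 ± 24.8 with DTPA (0.59, adjusted p = 1.84e-10), 872 ± 4.19 with DFO (0.17, adjusted p = 0.000334) and 885 ± 2.23 with SA (0.20, adjusted p = 3.72e-05; SD, n = 3). Larp1, which binds such mRNAs, fell with DTPA from 286 ± 6.45 to 150.1 ± 4.99 TPM (-0.92, adjusted p = 5.13e-11). With SA it rose to 317 ± 4.89 (0.15, adjusted p = 0.00212), and with DFO it was called higher (0.10, adjusted p = 0.0401) but not without any 1 of the 6 libraries (adjusted p 0.0559 to 0.129). Pabpc4 fell from 188 ± 4.67 to 84.1 ± 4.27 TPM with DTPA (-1.15, adjusted p = 6.09e-11) and rose to 237 ± 3.37 with SA (0.34, adjusted p = 3.66e-05).

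Of 11 tested genes of mTORC1, the S6 and MNK kinases and TSC, 9 were lower and 1 was higher with DTPA, with DFO limma called 0 (3 at an unadjusted p under 0.05, 0 with voom), and 4 were higher and 1 lower with SA. The shares over all genes were 42.1% lower and 23.5% higher with DTPA, 10.7% called with DFO, and 15.4% higher and 6.75% lower with SA. With median-of-ratios scaling 6 were lower and 1 higher with DTPA, and 2 were higher and 2 lower with SA. Rps6kb1, the S6 kinase, went from 25.2 ± 1.68 to 17.2 ± 0.872 TPM with DTPA (-0.52, adjusted p = 2.06e-06), Mknk2, an eIF4E kinase, from 160.0 to 115 (-0.47, adjusted p = 2.68e-08), and Rheb, the activator of mTORC1, from 16.1 ± 0.0860 to 11.9 ± 0.187 (-0.41, adjusted p = 9.11e-07). With SA, Mknk2 and Mknk1 rose (0.22 and 0.18) and Rps6kb2 fell (-0.23, adjusted p = 0.00265).

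Of 10 helicases and assembly or release partners, 2 rose and 7 fell with DTPA, beside 42.1% of all genes lower, and with median-of-ratios scaling 3 rose and 5 fell. Pdcd4, which blocks the eIF4A helicase, rose from 183 ± 4.54 to 339 ± 1.58 TPM with DTPA (0.88, adjusted p = 1.04e-11), and to 213 ± 2.94 with DFO (0.22, adjusted p = 0.000144) and 206 ± 2.79 with SA (0.17, adjusted p = 0.000178). The helicase Dhx29 (-0.48) and Efl1, a GTPase that releases eIF6 (-0.48), were lower with DTPA. Pdcd4 was the 1 gene of this list called with DFO and with SA. That is 10% of the list in each, beside 10.7% of all tested genes with DFO and 22.2% with SA.

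Of 7 tested termination and recycling factors, 2 were higher and 4 lower with DTPA (23.5% and 42.1% of all genes), including Abce1, the recycling ATPase (-0.43), Etf1, the release factor (-0.26), and Mcts1, a recycling partner (0.34, higher). With DFO limma called 0, beside 10.7% of all tested genes, with 0 at an unadjusted p under 0.05 and 0 with voom. With SA, where 15.4% of all tested genes were higher and 6.75% lower, 1 was called in each direction, Hbs1l (0.11, adjusted p = 0.0194) and Gspt1 (-0.11, adjusted p = 0.0332). The first was lost without control replicate 2, SA replicate 2 or SA replicate 3 (adjusted p 0.0616 to 0.0712), and the second without control replicate 1 or 3 or any SA replicate (adjusted p 0.0715 to 0.118).

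Of the 9 enzymes that make hypusine on eIF5A and diphthamide on eEF2, 1 was higher and 3 were lower with DTPA, a share below the 65.5% called over all genes. The 3 were Dph3 (-0.44), Dnajc24 (-0.38) and Dhps (-0.28). The 1 that was higher was Dohh, the iron enzyme that completes hypusine (0.28, adjusted p = 0.0149), named after its value was seen; without control replicate 1 or DTPA replicate 1 its adjusted p was 0.058 and 0.0576. With the iron chelator DFO, Dohh was at 24.7 ± 2.57 TPM against 21.2 ± 1.60, an overlap (0.21, adjusted p = 0.154). Of 10 mitochondrial translation factors, 6 were lower with DTPA, such as Tufm (-0.47), Mtrf1l (-0.47) and Tsfm (-0.44), and 0 were higher, also at an unadjusted p under 0.05; with voom 2 were higher and 5 lower, and with median-of-ratios scaling 2 and 3. These 6 of 10 calls are near the 65.5% called over all genes. Tufm was higher with DFO (0.20, adjusted p = 0.000857) and Mtif2 with SA (0.14, adjusted p = 0.0109), the 1 call of the list in each. That is 10% of the list, beside 10.7% of all tested genes with DFO and 22.2% with SA.

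The numbered -ps rows carry signal that cannot be separated from their parent genes. Of 12, 6 passed the filter. Eif4a-ps4 was at 170.4 TPM in control, 58.5% of Eif4a1, and at 54.6%, 57.1% and 57.4% of it with DTPA, DFO and SA. Eif3s6-ps2 was at 42.1 TPM, 47.8% of Eif3e in control and 47.0%, 47.5% and 49.5% with the treatments. Eef2-ps2 was at 28.2 TPM, 0.791% of Eef2, and Eif1-ps1 at 42.5 TPM, 7.60% of Eif1. These copies moved with their parents: Eif4a-ps4 was lower with DTPA (-0.62, adjusted p = 2.25e-07), Eif3s6-ps2 was higher (0.58, adjusted p = 1.72e-05), and Eef2-ps2 was higher with all 3 treatments. The levels of Eif4a1, Eif3e, Eif1 and Eef2 are uncertain by as much as reads were split between gene and copy. The percentages above compare length-scaled TPM and do not count reads. Recovered reads per library were 1004 to 1572 for Eif4a-ps4 and 6177 to 9412 for Eif4a1. For Eif3s6-ps2 they were 364 to 716, and for Eif3e 3883 to 7621.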

How the data were processed

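Polyadenylated RNA of 12 cultures was sequenced with a stranded mRNA kit, per the labels' protocols. Reads were handled on mm10, per the submitters' processing notes, with HISAT2 2.1.0, Trimmomatic 0.33, featureCounts, FastQC and edgeR; which settings and which annotation release they used is not given in the sources used here. Each library has 1 deposited table of TPM values. Groups and replicate numbers come from the sample titles. The design text calls the libraries biological replicates.

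The 11917 genes that reached 1 TPM in 3 or more libraries were fitted as log2(TPM + 1) with limma 3.58.1 (R 4.3.3), 1 mean per group over all 12 libraries, trended empirical Bayes, and Benjamini and Hochberg adjustment over all tested genes; the threshold was 0.05. A log2 difference understates the change of low genes. Where symbols repeated (234 rows), the row with the highest mean kept the symbol. TPM multiplied by GENCODE M21 exon length gave whole reads within 0.1 read for 98.8% to 99.0% of values of up to 200 reads. Replicates differed beyond counting noise (chi-square per degree of freedom 2.04 to 5.61). Python 3.11.15 with pandas 2.3.3, numpy 2.4.6, scipy 1.17.1 and matplotlib 3.10.9 served for tables and plots. Before use, the fit was run on simulated data with known changes.

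The members and lists were chosen with earlier results of these data known. One listed marker gene is not reported here. Members were named by role, with the 6 largest called rises and falls per treatment (at least 5 TPM, groups not overlapping) and up to 3 called genes per pathway list and treatment in full. The other settings were pseudocounts of 0.1 and 5, no filter and a 5 TPM filter, median-of-ratios and trimmed-mean scaling, rescaling without globin, ribosomal protein and mitochondrial genes, a robust empirical Bayes step, the 6 compared libraries alone, the replicate number as a block, and each library left out. Limma's voom on recovered reads (at least 10 in 3 libraries) was added after seeing the data.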

Additional observations from a re-analysis of the deposited data

How the results depend on the processing

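With median-of-ratios scaling the summed elongation factors were at 1.53, 1.09 and 1.19 times control with DTPA, DFO and SA, eIF3 at 1.09, 1.01 and 1.04, the cap complex at 0.874, 0.993 and 0.983, and eIF2B at 0.920, 0.998 and 1.01; modifiers were at 0.565 with DTPA and 1.03 with SA. With DTPA, 4 members with a call on at least 1 scale changed sign: Eef1g (0.0945 with median-of-ratios scaling, 0.0905 with trimmed-mean scaling, 0.0721 when rescaled without globin, ribosomal protein and mitochondrial genes), Eif1 (0.0306, 0.0266 and 0.00823 in that order), Eif3a (0.0818, 0.0778 and 0.0594) and Eif3k (0.0598, 0.0558 and 0.0374, and 0.0016 with voom). Eif2b1 (0.103, 0.0992 and 0.0814, from -0.0273) and Eif4ebp1 (0.0755, 0.0716 and 0.0533, from -0.0564) changed sign with no call on any of these scales. Members lower with DFO numbered 2 with either scaling and with voom. With SA, 13 members were higher with median-of-ratios scaling, and 8 were lower with it, 8 with trimmed-mean scaling and 5 with voom; 22 were higher with DTPA than with SA with median-of-ratios scaling. With no filter, 531 genes were called with DFO, 1524 with SA and 802 between DFO and SA (1 member higher and 7 lower); the 6 compared libraries alone called 802 with DFO. Without 1 replicate, calls over all genes ranged from 7415 to 7494 (DTPA), 840 to 960 (DFO), 2039 to 2217 (SA), 7438 to 7527 (DTPA and DFO), 7607 to 7642 (DTPA and SA) and 1134 to 1207 (DFO and SA). Members higher ranged from 17 to 18, 8 to 10, 19 to 21, 14 to 16, 13 to 15 and 2 to 5 in the same order, and members lower from 34 to 37, 0 to 0, 2 to 4, 36 to 36, 35 to 36 and 7 to 11. Fewer samples enter those fits; otherwise the cause was not tested. Same replicate numbers do not pair the libraries: correlations of deviations were -0.0433 to 0.0537 in 18 same-number pairs and -0.0625 to 0.0567 in 36 others. The fit with the replicate number as a block called 7746, 1058 and 2432 genes with DTPA, DFO and SA, with 17 members higher and 35 lower, 9 and 0, and 20 and 3. Depth limits the genes near 1 TPM, such as Eif4ebp3 and Eef1akmt4.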
